A study of Mus musculus with 16 samples.

Results

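The endoplasmic reticulum stress genes described here are 10 genes of the unfolded protein response: Hspa5, Hsp90b1, Pdia4, Dnajb9, Xbp1, Atf6, Atf4, Ddit3, Trib3 and Herpud1. Their probes were found by the RefSeq accession that the array files give, with no use of measured values. The genes themselves were chosen with earlier results of these data known. They are 10 of the 20660 genes named on the array and are read by 12 of its 55681 probes, because Atf4 and Dnajb9 have a second probe. All 12 probes gave a signal well above background on all 16 arrays, and all 10 genes were among the 19022 genes tested. The samples were mice of the nm3342 mutant line and wild-type mice at 1 month and at 1 year of age, with 4 arrays in each of the 4 groups. All samples are labelled as C57Bl/6J in strain background and as male, and each held RNA of retina and retinal pigment epithelium (RPE) together. The series title presents the line as a possible model of serous detachment of the retina. Which gene carries the mutation is not given in the labels, and the genotype was therefore not checked on a target. Markers of rods (8 of 8) and of the RPE (6 of 7) were well above background on all 16 arrays. The remaining RPE marker, Best1, was not well above background on at least 4 arrays and was not tested.

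Proteins that enter the secretory pathway fold in the endoplasmic reticulum (ER), and unfolded protein there sets off the unfolded protein response. Its sensors are IRE1, which splices the message of the transcription factor Xbp1; PERK, which phosphorylates the translation factor eIF2 alpha and so favours translation of Atf4; and ATF6, which is cut in the Golgi to free a transcription factor. Their targets are chaperones, disulfide isomerases, parts of the machinery that removes misfolded protein, and, under lasting stress, the pro-apoptotic factor CHOP (gene name Ddit3). Rod photoreceptors load their ER with rhodopsin and the RPE secretes matrix and growth factors, and this response has been studied in both. A message level does not report splicing of Xbp1, translation of Atf4 or cleavage of ATF6.

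Promoter windows are shown because the members differed in exact matches to one known motif of the response, the ER stress response element. The sequences are the 250 bases before the gene start, 5′ to 3′ on the gene's strand, from RefSeq windows of build GRCm38.p6. Capitals mark the 2 ends of the ER stress response element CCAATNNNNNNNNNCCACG in Hspa5, Hsp90b1 and Calr. In Herpud1 they mark TTGCATCA, the core of a composite site for ATF4 and CHOP, and then ATTGGNCCACG, known as ERSE-II. In Kdelr3 they mark TGACGTGG, known as the unfolded protein response element, read on the opposite strand. Calr, a lectin chaperone, and Kdelr3, a retrieval receptor, are no members and are shown because both changed in the comparisons given further on.
Hspa5, chr2:34771840-34772089 on the plus strand: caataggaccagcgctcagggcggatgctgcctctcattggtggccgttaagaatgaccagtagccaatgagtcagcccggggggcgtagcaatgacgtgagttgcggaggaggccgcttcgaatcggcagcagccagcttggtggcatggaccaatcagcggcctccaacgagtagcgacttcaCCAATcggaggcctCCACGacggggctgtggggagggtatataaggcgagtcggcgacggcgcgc
Hsp90b1, chr10:86705445-86705694 on the minus strand: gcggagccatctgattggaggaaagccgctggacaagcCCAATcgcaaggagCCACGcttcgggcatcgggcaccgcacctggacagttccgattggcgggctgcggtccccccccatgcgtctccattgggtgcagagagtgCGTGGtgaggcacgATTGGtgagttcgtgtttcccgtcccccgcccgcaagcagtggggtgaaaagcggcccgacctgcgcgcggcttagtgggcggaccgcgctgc
Herpud1, chr8:94386179-94386428 on the plus strand: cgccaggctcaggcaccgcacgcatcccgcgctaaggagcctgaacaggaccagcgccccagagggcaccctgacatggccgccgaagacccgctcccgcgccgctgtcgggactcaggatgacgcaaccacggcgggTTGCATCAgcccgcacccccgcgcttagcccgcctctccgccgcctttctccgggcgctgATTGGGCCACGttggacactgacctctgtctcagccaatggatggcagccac
Calr, chr8:84846932-84847181 on the minus strand: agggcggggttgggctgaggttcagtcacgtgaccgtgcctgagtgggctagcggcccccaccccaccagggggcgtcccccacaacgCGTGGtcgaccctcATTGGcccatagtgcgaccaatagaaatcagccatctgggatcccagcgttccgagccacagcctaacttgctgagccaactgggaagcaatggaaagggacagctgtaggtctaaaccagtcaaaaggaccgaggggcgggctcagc
Kdelr3, chr15:79516158-79516407 on the plus strand: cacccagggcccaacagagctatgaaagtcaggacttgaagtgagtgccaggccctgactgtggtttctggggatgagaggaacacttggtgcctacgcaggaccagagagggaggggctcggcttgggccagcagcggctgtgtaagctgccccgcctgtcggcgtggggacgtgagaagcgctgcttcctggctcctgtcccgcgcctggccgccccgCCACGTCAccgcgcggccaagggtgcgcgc

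All 4 motifs were searched on both strands of the 300-base windows, which add 50 bases after the gene start. The matches printed here do not overlap each other. Only exact matches outside the N positions were searched, so a near match in any window was neither counted nor marked. The table holds 32851 windows and matched 9 of the 10 members, all except Atf6. The ER stress response element stood in 39 windows (0.119% of all) and in those of 2 members. The window of Hspa5 holds 1 exact copy, beginning 65 bases before the gene start. That of Hsp90b1 holds 2 exact copies, beginning 212 and 107 bases before it, the second on the opposite strand. ERSE-II stood in 12 windows (0.0365%), Herpud1 among them, and TTGCATCA in 294 windows (0.895%), again with Herpud1 among them. TGACGTGG stood in 222 windows (0.676%) and in no member's window. Among the folding enzymes named further on, Calr, Canx, Creld2 and Pdia6 hold the ER stress response element, 4 of the 13 with a window. A match is a description of letters and was not tested for binding.

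Levels are log2 intensities minus the 75th percentile of the array, so a level of 0 is that percentile, and changes are differences between group means on this log2 scale with the standard error of the fit (limma, 4 arrays per group). The test was two-sided, p-values were adjusted by Benjamini and Hochberg's method across the 19022 genes, and a gene with an adjusted value under 0.05 is said to be called. Per array, 82.1% to 89.6% of spots were well above background, the 75th percentile was 603 to 994 intensity units, and arrays correlated with each other at 0.960 to 0.993. The number of arrays sets the precision, since arrays give no counts. The files show 2 slides of 8 arrays with 2 arrays of every group on each, so values within each slide can be given. On slide 2 all mutant arrays lay in row 2 and all wild-type arrays in row 1, so row and genotype cannot be told apart there. On 3 arrays labelled male (replicates 2 and 3 of the month-old mutants, replicate 1 of the year-old ones) Xist stood at -0.38 to -0.03 against -8.61 to -5.68 on the other 13, and Ddx3y at -8.47 to -8.12 against 0.69 to 1.19, which is the female pattern. For members and several named pathway genes, values that rest on the mutant groups are also given without these arrays where a call is lost. Among all genes, 59.1% of those called with age in wild types and 56.3% in mutants were higher at 1 year. With the arrays scaled to their median these shares were 77.5% and 80.8%, and for the difference between genotype effects 52.4% in place of 33.8%.

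In mutants at 1 month no member passed the test, while 518 genes did (2.72% of all tested, 2.03% as higher). Hspa5, Hsp90b1, Xbp1, Pdia4 and Ddit3 had positive changes and Atf4, Atf6, Dnajb9, Herpud1 and Trib3 negative ones. The median of the 10 changes was 0.06, beside 0.02 over all genes, and 3 members (Hspa5, Hsp90b1 and Xbp1) had an unadjusted p under 0.05, a level that 15.2% of all genes reached. The 4 mutant arrays lay above the 4 wild-type arrays for Hspa5, Hsp90b1 and Pdia4, and groups were apart in either direction for 8.53% of all genes. With arrays scaled to their median, Atf6, Herpud1 and Trib3 turned positive too. In this bulk tissue, fewer cells of a type and less RNA per cell cannot be told apart.

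At 1 year the 5 members with positive values at 1 month had negative ones, and the other 5 were negative at both ages. All 10 members had negative changes in the mutant, none passed the test (0.857% of all genes did), and none had groups apart (7.83% of all genes did). Herpud1 turned positive with median scaling, Ddit3, Dnajb9 and Herpud1 on slide 2 alone, and Ddit3 and Herpud1 without wild-type 1-year replicate 3. The members' median was -0.20, beside -0.01 over all genes, and Hspa5 and Hsp90b1 reached an unadjusted p under 0.05, as did 11.4% of all genes. The difference between the mutant's effect at 1 year and at 1 month was negative for all 10, with a median of -0.21 beside -0.02 over all genes. It was negative for 8 with quantile scaling, and for 7 on slide 2 alone and without wild-type 1-year replicate 3. No member passed the test of that difference (0.421% of all genes did), 4 of them (Hsp90b1, Hspa5, Xbp1 and Pdia4) had an unadjusted p under 0.05 (10.8% of all genes did), and the lowest adjusted p was 0.0685, for Hsp90b1.

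With age in wild types 8 of the 10 members had positive changes, with a median of 0.22 beside -0.03 over all genes, and 1 of them, Hsp90b1, rose past the threshold. For comparison, 12.4% of all genes were called in this comparison, 7.31% as higher. The members with an unadjusted p under 0.05 were 4 (26.4% of all genes), and the 1 whose groups were apart was Hsp90b1 (18.9% of all genes). With age in mutants no member was called (6.7% of all genes were) and none had an unadjusted p under 0.05 (21% of all genes did), 7 of 10 changes were negative with a median of -0.14 beside -0.05 over all genes, and Hspa5 alone had groups apart, the 1-year arrays lying lower (13.8% of all genes were apart). The wild-type comparison over age and the genotype comparison at 1 month share the same 4 wild-type arrays of 1 month, so a low level there enters both.

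**Figure D1:**
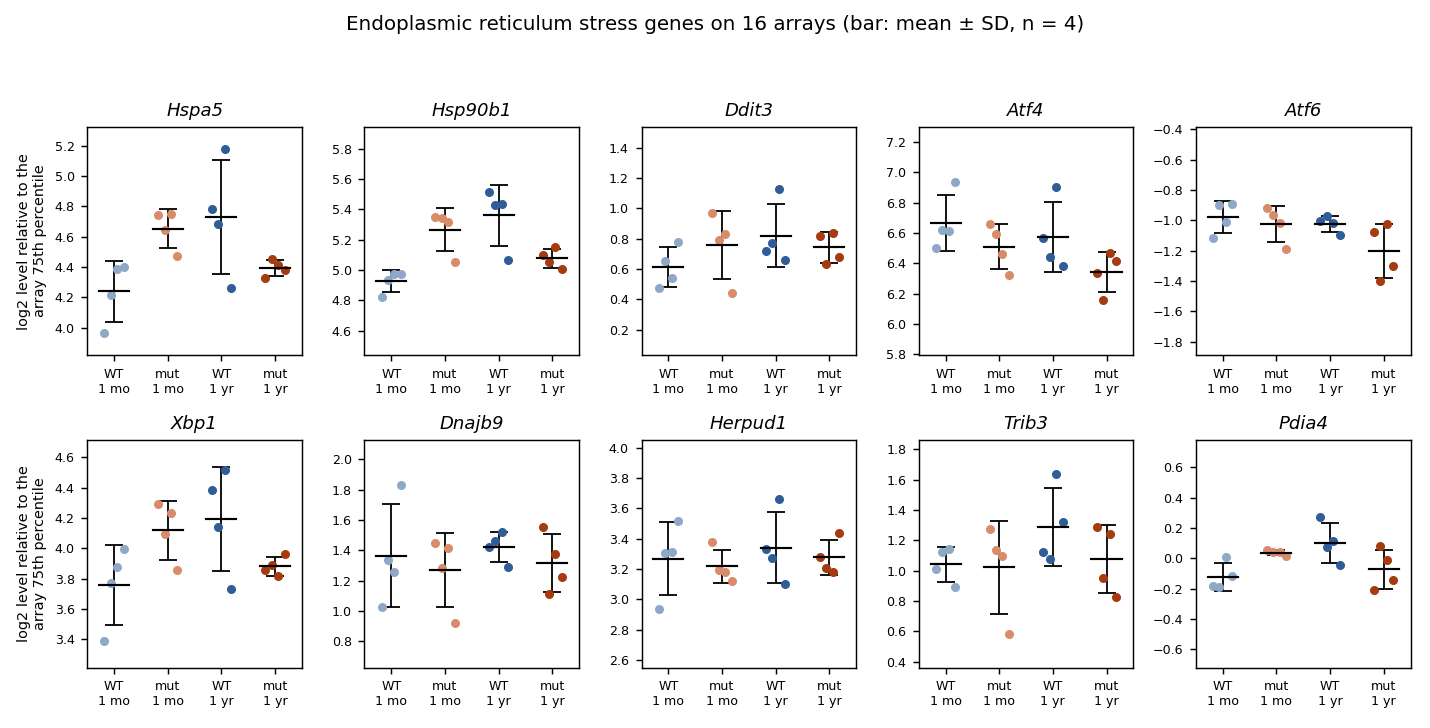
Level of each of the 10 members on every array, as log2 intensity relative to the array's 75th percentile, with the group mean and SD (n = 4); points are arrays and each panel has its own vertical range. Hspa5, Hsp90b1 and Xbp1 show low wild-type arrays at 1 month and a wide wild-type group at 1 year, where replicate 4 lies lowest.

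Hspa5 codes for BiP, the ER chaperone that binds unfolded chains and holds the sensors inactive, and lies on chromosome 2. Its level was 3.96, 4.22, 4.38 and 4.397 on the 4 wild-type arrays at 1 month and 4.74, 4.65, 4.75 and 4.47 on the mutant arrays of that age. At 1 year it was 4.78, 4.68, 5.18 and 4.26 in wild types and 4.33, 4.45, 4.42 and 4.38 in mutants. The month-old groups did not overlap, while the mutant arrays of 1 year all lay inside the wide range of the wild types. The change in mutants was 0.41 ± 0.15 at 1 month (limma adjusted p = 0.208) and -0.33 ± 0.15 at 1 year (adjusted p = 0.433), and the difference between them was -0.75 ± 0.22 (adjusted p = 0.168). With age it was 0.49 ± 0.15 in wild types (adjusted p = 0.0524) and -0.26 ± 0.15 in mutants (adjusted p = 0.361). The wild-type change with age was 0.84 on slide 1 and 0.13 on slide 2. Without wild-type 1-year replicate 4 it was 0.64 and passed the test (limma adjusted p = 0.00625). Without mutant 1-month replicate 4, an array of neither wild-type group, the adjusted p was 0.0488. Among the 33 other settings described at the end, this wild-type change was called in 6.

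Hsp90b1 codes for GRP94, the ER member of the Hsp90 family, which folds integrins and Toll-like receptors, and lies on chromosome 10. Its level was 4.82, 4.93, 4.98 and 4.98 in wild types at 1 month and 5.35, 5.34, 5.31 and 5.06 (5.055 before rounding) in mutants of that age. At 1 year it was 5.52, 5.43, 5.44 and 5.07 in wild types and 5.10, 5.05, 5.15 and 5.01 in mutants. The wild-type arrays of 1 month lay below all 12 others, and 3 of the 4 wild-type arrays of 1 year lay above all 4 mutant arrays of that age. With age in wild types Hsp90b1 rose by 0.44 ± 0.10, or 1.35-fold (limma adjusted p = 0.00943), and all 4 arrays of 1 year lay above all 4 of 1 month. The change was 0.56 on slide 1 and 0.32 on slide 2, neither called alone (adjusted p = 0.158 and 0.309), and with median scaling the adjusted p was 0.0779. In mutants the change was 0.34 ± 0.10 at 1 month (adjusted p = 0.0933) and -0.28 ± 0.10 at 1 year (adjusted p = 0.247), with a difference of -0.62 ± 0.14. Leaving out wild-type 1-year replicate 4 gave -0.38 at 1 year (limma adjusted p = 0.0378) and a difference of -0.72 (adjusted p = 0.0128). It also brought the 1-month value to an adjusted p of 0.0352. That array is in neither month-old group, so the 1-month change itself stayed the same. Leaving out mutant 1-month replicate 4, the array that stood apart in its group, gave 0.41 at 1 month (adjusted p = 0.0287) and a difference of -0.69 (adjusted p = 0.0309). That array also had the highest mean level of erythrocyte markers, 2.88 against -2.39 to 0.29 on the other 15, and the part of blood in its level was not tested. Without the 3 arrays with the female pattern the 1-month value was 0.28 (adjusted p = 0.562). Under the other settings Hsp90b1 was called in mutants in 2 of 33 at 1 month and 1 of 33 at 1 year. The difference was called in 4 of 32.

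Pdia4 codes for ERp72, a disulfide isomerase of the ER. Its level was -0.19, -0.19, 0.01 and -0.12 in wild types and 0.05, 0.04, 0.04 and 0.01 in mutants at 1 month, so the groups were apart by a narrow margin. At 1 year it was 0.27, 0.07, 0.12 and -0.05 in wild types and -0.21, 0.08, -0.01 and -0.15 in mutants, which overlap. The change was 0.16 ± 0.08 at 1 month (limma adjusted p = 0.386), -0.17 ± 0.08 at 1 year (adjusted p = 0.448) and 0.22 ± 0.08 with age in wild types (adjusted p = 0.0943). Dnajb9 codes for ERdj4, a co-chaperone of BiP, and its 4 group means stood within 0.16 of each other. Its probe spanned 0.92 to 1.83 over the 16 arrays, with both extremes at 1 month (replicate 4 of the mutants and replicate 4 of the wild types), and its second probe changed by -0.04 in mutants at 1 month and by -0.08 at 1 year.

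Xbp1, the transcription factor of the IRE1 arm, lies on chromosome 11. Its level was 3.39, 3.77, 3.88 and 4.00 in wild types and 4.29, 4.09, 4.23 and 3.86 in mutants at 1 month. At 1 year it was 4.39, 4.14, 4.52 and 3.73 in wild types and 3.85, 3.89, 3.82 and 3.96 in mutants. The ranges overlapped at both ages through mutant replicate 4 at 1 month and wild-type replicate 4 at 1 year. The change in mutants was 0.36 ± 0.16 at 1 month (limma adjusted p = 0.313) and -0.31 ± 0.16 at 1 year (adjusted p = 0.508), and with age in wild types it was 0.44 ± 0.16 (adjusted p = 0.101). That last value was 0.75 on slide 1 and 0.12 on slide 2, and 0.59 without wild-type 1-year replicate 4 (adjusted p = 0.0183). It was called in 4 of the 33 other settings. The files give no position of the probe within the message, so its spliced and unspliced forms were not told apart here.

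Atf6, which codes for the sensor of the same name on chromosome 1, had group means of -0.98 ± 0.11 (SD, n = 4) in wild types and -1.02 ± 0.12 in mutants at 1 month, and of -1.02 ± 0.05 and -1.20 ± 0.18 at 1 year. Mutant 1-year replicates 2 and 4, at -1.40 and -1.30, were the lowest 2 arrays of the 16. The change at 1 year was -0.18 ± 0.09 (limma adjusted p = 0.502), with an interval from -0.38 to 0.02. Atf4, the transcription factor of the PERK arm on chromosome 15, had group means of 6.67 ± 0.19 and 6.51 ± 0.15 at 1 month and 6.57 ± 0.23 and 6.34 ± 0.13 at 1 year, wild type first. Its change was -0.16 ± 0.13 at 1 month and -0.23 ± 0.13 at 1 year (adjusted p = 0.600 and 0.536). The second Atf4 probe differed in sign at 1 month, with 0.07 ± 0.13, and gave -0.34 ± 0.13 at 1 year (unadjusted p = 0.0197, adjusted p = 0.447 over 49230 probes).

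Ddit3, which codes for CHOP, and Trib3, a pseudokinase induced by ATF4 and CHOP, lie downstream of Atf4. Ddit3 stood at 0.48, 0.65, 0.54 and 0.78 in wild types and 0.97, 0.79, 0.83 and 0.44 in mutants at 1 month, and at 0.72, 0.78, 1.13 and 0.66 against 0.82, 0.63, 0.84 and 0.68 at 1 year. Its groups overlapped at both ages, and its change was 0.15 ± 0.12 at 1 month (limma adjusted p = 0.631, interval -0.12 to 0.41) and -0.08 ± 0.12 at 1 year (adjusted p = 0.863, interval -0.34 to 0.19). Trib3 changed by -0.02 ± 0.16 at 1 month and by -0.21 ± 0.16 at 1 year, with its lowest array (0.58, mutant 1-month replicate 4) and its highest (1.64, wild-type 1-year replicate 3) in different groups. Herpud1, a membrane protein that recruits the degradation complex to misfolded proteins, spanned 2.94 to 3.66 over the arrays while its 4 group means lay within 0.12 of each other. Its change was -0.05 ± 0.13 at 1 month and -0.06 ± 0.13 at 1 year, with intervals of -0.33 to 0.23 and -0.34 to 0.22. A 2-fold change in mutants, 1 on this scale, lies outside the 95% interval of each of the 10 members at both ages.

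**Figure D2:**
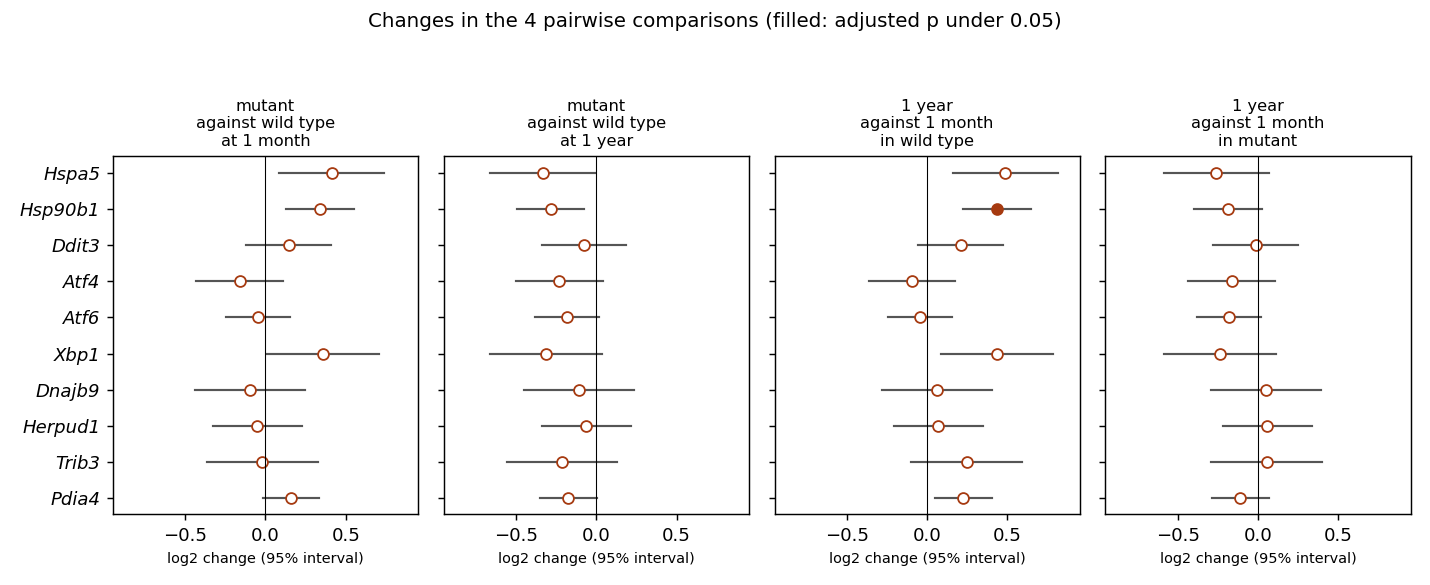
Log2 change of each member in the 4 pairwise comparisons, with its 95% interval from the fit over 16 arrays (4 per group); a filled point marks an adjusted p under 0.05. Hsp90b1 with age in wild types (0.44) is the only filled point, and all 10 points lie left of 0 for the mutant at 1 year.

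For 5 members, Hspa5, Hsp90b1, Ddit3, Xbp1 and Pdia4, the 4 group means had the same order, with wild types of 1 year highest, then mutants of 1 month, mutants of 1 year and wild types of 1 month. Neighbours in that order overlapped in their ranges, except mutants of 1 month and of 1 year for Hspa5 and mutants of 1 year and wild types of 1 month for Hsp90b1. Atf4 and Atf6 had wild types of 1 month highest and mutants of 1 year lowest, and here too all neighbouring ranges overlapped. Dnajb9, Herpud1 and Trib3 had wild types of 1 year highest, mutants of 1 month lowest for Herpud1, Trib3 and Dnajb9 alike, and overlapping neighbours throughout.

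Further genes of the pathway were counted in lists by role. Of 17 tested ER folding enzymes and genes of the ATF6 arm, 3 rose in mutants at 1 month, namely Calr, Pdia3 and P4hb, and none fell. Over all genes 2.72% were called in this comparison, 2.03% as higher. Of the 17 changes 15 were positive, with a median of 0.23 beside 0.02 over all genes. None of the 17 was called in mutants at 1 year (0.857% of all genes were), where 12 were negative with a median of -0.12. An unadjusted p under 0.05 was reached by 4 of the 17 (11.4% of all genes did). Of these, Sdf2l1, Ero1a and Atf6b were lower and P4hb was higher. With age in wild types 4 of the 17 rose, Calr, Pdia3, P4hb and Sdf2l1, where 7.31% of all genes were called as higher. With age in mutants none of the 17 was called (6.7% of all genes were), and 15 were negative, the median of the 17 being -0.17 beside -0.05 over all genes.

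Calr codes for calreticulin, which folds glycoproteins and holds calcium in the ER. Its level was 2.95, 3.12, 3.23 and 3.12 in wild types and 3.82, 3.67, 3.64 and 3.61 in mutants at 1 month, groups that do not overlap. At 1 year it was 3.82, 3.53, 3.57 and 3.39 in wild types and 3.36, 3.54, 3.43 and 3.27 in mutants, groups that overlap. Calr rose by 0.58 ± 0.10, or 1.49-fold, in mutants at 1 month (limma adjusted p = 0.00590), changed by -0.18 ± 0.10 at 1 year (adjusted p = 0.536), and the effects differed by -0.75 ± 0.14 (adjusted p = 0.0292). It was the 1 gene of the 17 with a called difference between ages (0.421% of all genes had one). The 1-month change was 0.60 on slide 1, 0.55 on slide 2 and 0.61 without the female-pattern arrays (adjusted p = 0.0740, fewer arrays), and the difference lost its call there (-0.77, adjusted p = 0.182). Leaving out single arrays gave differences of -0.82 to -0.67, and the call was lost without replicates 1, 2 or 3 of the month-old mutants, 1, 3 or 4 of the year-old mutants, 1 or 2 of the month-old wild types, or 3 of the year-old wild types (adjusted p = 0.0508 to 0.0717).

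Pdia3, the disulfide isomerase that works with calreticulin, rose by 0.55 ± 0.09 in mutants at 1 month (limma adjusted p = 0.00611) and by 0.57 ± 0.09 with age in wild types (adjusted p = 0.000918). P4hb, the classical protein disulfide isomerase, rose by 0.55 ± 0.09 in mutants at 1 month (adjusted p = 0.00472) and by 0.29 ± 0.09 with age in wild types (adjusted p = 0.0470). Within the slides the 1-month changes were 0.56 and 0.55 for Pdia3 and 0.57 and 0.53 for P4hb, with no call on either slide alone. Without the female-pattern arrays they were 0.53 (adjusted p = 0.109) and 0.55 (adjusted p = 0.0790). The 4 mutant arrays of P4hb lay above the 4 wild-type arrays at 1 year as well, by 0.21 ± 0.09 (adjusted p = 0.378). Its call with age in wild types was lost when any 1 of the 16 arrays was left out (0.19 to 0.32, adjusted p = 0.0505 to 0.154). Sdf2l1, a partner of BiP, rose by 0.86 ± 0.16 with age in wild types (adjusted p = 0.00217), with wild-type 1-year arrays from -1.48 to -0.50.

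**Figure D3:**
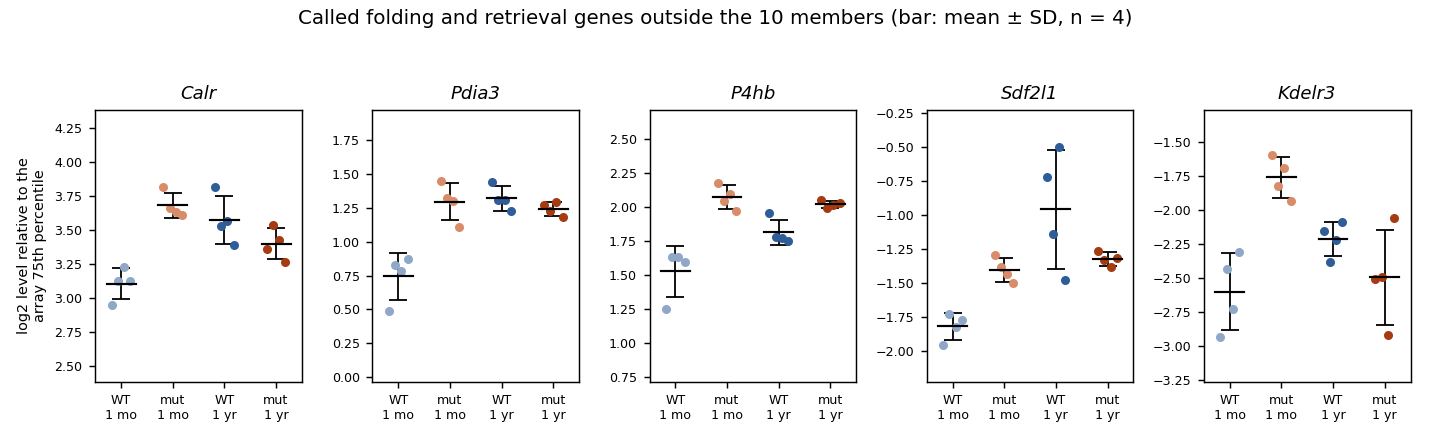
Level on every array of 5 pathway genes outside the 10 members that were called in at least 1 comparison, as log2 intensity relative to the array's 75th percentile, with group mean and SD (n = 4). The mutant arrays of 1 month lie above the wild-type arrays of 1 month in each panel, and the groups of 1 year overlap for all but P4hb.

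Of 14 genes of the IRE1 arm and the secretory pathway, 1 rose in mutants at 1 month, where 2.03% of all genes were called as higher. It was Kdelr3, a receptor that returns chaperones from the Golgi to the ER. Its level was -2.94, -2.44, -2.73 and -2.31 in wild types and -1.60, -1.83, -1.69 and -1.94 in mutants at 1 month, groups that do not overlap. The change was 0.84 ± 0.17 at 1 month (limma adjusted p = 0.0158) and -0.28 ± 0.17 at 1 year (adjusted p = 0.581). In mutants Kdelr3 fell by 0.74 with age (adjusted p = 0.0155), and without the female-pattern arrays neither call held (0.84, adjusted p = 0.166, and -0.73, adjusted p = 0.226). The Kdelr3 call at 1 month was also lost without mutant 1-month replicate 1 or wild-type 1-month replicates 1 or 3 (adjusted p = 0.0511 to 0.0582), and the call with age without mutant 1-month replicate 1 (adjusted p = 0.0530). Sec24d, Spcs3 and Serp1, a vesicle coat protein, a signal peptidase subunit and a translocon partner, rose with age in wild types by 0.40, 0.33 and 0.50 (limma adjusted p = 0.0365, 0.0470 and 0.0338). Over all genes 7.31% were called as higher there. Under the 33 other settings the call held in 20 for Sec24d, in only 9 for Spcs3 and in 22 for Serp1. Each of the 3 calls was lost when some single arrays were left out, replicate 1 of either wild-type age among them. In those fits the limma adjusted p was 0.108 and 0.0932 for Sec24d, 0.135 and 0.122 for Spcs3, and 0.0941 and 0.115 for Serp1 (month-old array first). Ern1, which codes for IRE1, changed by -0.13 ± 0.12 in mutants at 1 month (adjusted p = 0.656), and Edem1 was not called in any comparison.

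Of 24 eIF2 alpha kinases and targets of ATF4 and CHOP, 2 rose in mutants at 1 month, the kinase Eif2ak2 and the amino acid transporter Slc7a5. Slc7a5 was also called as higher at 1 year (named after its values were seen). Over all genes 2.03% were called as higher at 1 month, and 0.857% were called in either direction at 1 year. Eif2ak2, the RNA-activated kinase PKR, which interferon induces, rose by 0.81 ± 0.17 in mutants at 1 month (limma adjusted p = 0.0202) and by 0.86 ± 0.17 with age in wild types (adjusted p = 0.00390). Its 1-month call was lost without mutant 1-month replicate 1 (adjusted p = 0.0567), wild-type 1-month replicate 2 (0.0605) or the female-pattern arrays (1.00, adjusted p = 0.0622). Eif2ak3, which codes for PERK, changed by 0.06 ± 0.09 in mutants at 1 month and by -0.07 ± 0.09 at 1 year. With age in wild types 5 of the 24 rose and 2 fell, where 12.4% of all genes were called, 7.31% as higher. Among them Chac1, which degrades glutathione and is a target of ATF4, rose by 1.27 ± 0.24 (adjusted p = 0.00348), from -0.46 ± 0.19 to 0.81 ± 0.64 (SD, n = 4). Atf5 rose by 0.41 ± 0.09 (adjusted p = 0.00813) and Cth, an enzyme of cysteine synthesis, fell by 0.74 (adjusted p = 0.00366). The other gene that fell was Vldlr, a lipoprotein receptor, and the other 2 that rose were Mthfd2 and Gdf15, named after their values were seen. Ppp1r15a, which reverses eIF2 alpha phosphorylation, was not called in any comparison.

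Of 12 genes of ER-associated degradation none was called between genotypes, including Syvn1 and Sel1l, the core of the ubiquitin ligase. The shares of all genes that passed the genotype tests were low too, 2.72% in month-old and 0.857% in year-old mice. Edem2 alone fell with age in mutants, by 0.44 (limma adjusted p = 0.00660), where 6.7% of all genes were called. Its call held in 29 of the 33 other settings, with changes of -0.49 to -0.30. Of 5 ER stress cell death genes none was called between genotypes. Bbc3, which codes for PUMA, fell by 0.47 with age in wild types (limma adjusted p = 0.0121), where 12.4% of all genes were called. Pmaip1, which codes for NOXA, rose by 0.59 ± 0.16 with age in mutants (limma adjusted p = 0.0465). The Pmaip1 call was lost without any 1 of 14 arrays (0.46 to 0.64, adjusted p = 0.0539 to 0.135). Casp12 was not called in any comparison. Of 11 heat shock genes of the cytosol and mitochondria none was called between genotypes. With age in wild types, where 7.31% of all genes were called as higher, Hsph1 and Bag3 rose by 0.66 ± 0.18 and 0.72 ± 0.20 (limma adjusted p = 0.0301 and 0.0320). Without wild-type 1-year replicate 1 neither was called (Hsph1 0.61, adjusted p = 0.0909, and Bag3 0.59, adjusted p = 0.110), nor without wild-type 1-month replicate 1 (adjusted p = 0.0903 and 0.0899) or 4 (0.0550 and 0.0621).

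Most pairs of members correlated positively from array to array. The same values were not computed for pairs of all genes, so the correlations are not shown to be particular to the members. Over the 16 arrays, with group means subtracted, 42 of the 45 pairs of members correlated positively, 15 of them above 0.7, with a median Pearson r of 0.58. Hspa5 and Xbp1 were the closest pair (0.93, and 0.96 as measured), and Xbp1 with Herpud1 (0.88) and Ddit3 with Atf4 (0.86) followed. Pdia4 correlated with Hspa5, Hsp90b1 and Xbp1 at 0.54, 0.56 and 0.51, and with Ddit3, Atf6, Dnajb9 and Trib3 at 0.02, -0.07, -0.03 and -0.05. All points share the array's own scaling, and the members' levels went with the array's log2 75th percentile at r of 0.22 (Pdia4) to 0.74 (Atf4) and with the share of spots well above background at -0.61 (Trib3) to -0.10 (Pdia4), group means subtracted. The part of array brightness in these correlations was not tested, and they are given without p-values.

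**Figure D4:**
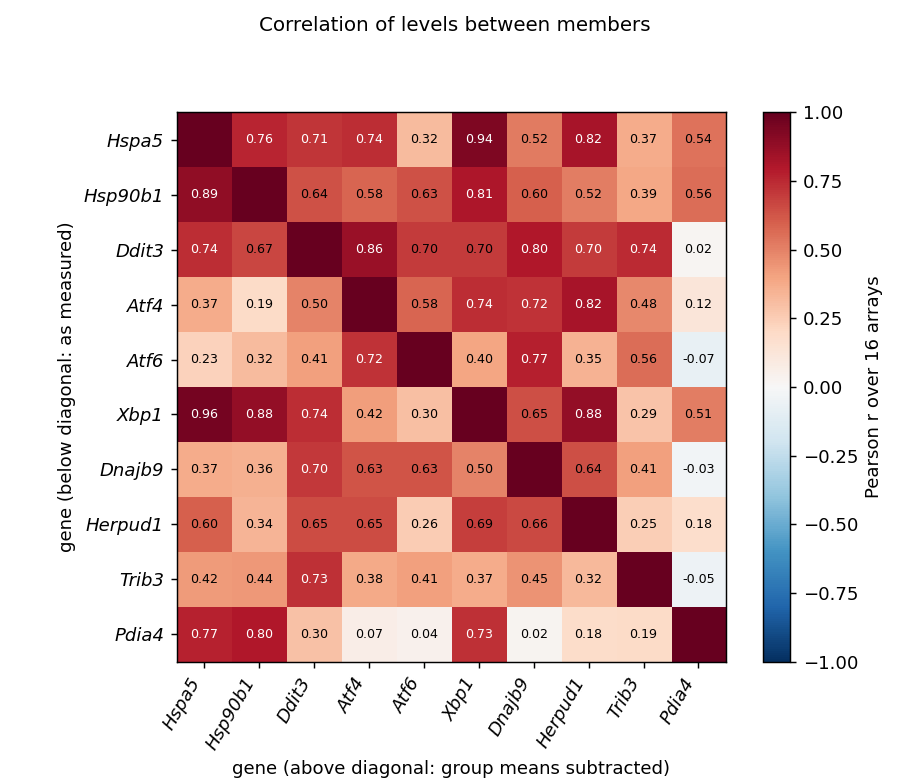
Pearson correlation of levels between the 10 members over 16 arrays, as measured in the lower left triangle and with group means subtracted in the upper right; red is positive, blue negative and the diagonal is 1. Hspa5, Hsp90b1 and Xbp1 have high values with each other in both. In the column of Pdia4 (group means subtracted), the values for Ddit3, Atf6, Dnajb9 and Trib3 are close to 0.

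The search for genes most like a member left out clone, RIKEN, Gm and LOC names and genes with a missing value. Among the other tested genes, those whose level over the 16 arrays was most like that of Hspa5 were Xbp1 (r = 0.96), St13 (0.96) and Creld2 (0.95) as measured. With group means subtracted they were Rexo4 (0.97), Creld2 (0.96) and St13 (0.96). For Xbp1 they were Hspa5, St13 and Manf (0.95) as measured. Creld2 and Manf belong to the 17 folding and ATF6 arm genes above. For Hsp90b1 they were Rbm14, Srp54a and Tmem201 (0.92 to 0.93), and for Ddit3 with group means subtracted Hilpda (0.96), Ydjc and Tmem50a. With 16 points and so many genes searched such values are a description.

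Markers of several cell types differed between the same groups. In mutants at 1 month 4 of 6 RPE markers, 4 of 5 melanin genes, 5 of 7 microglia and macrophage markers and 3 of 6 fibroblast and matrix markers (Lum, Col3a1 and Postn) were called as higher. Over all genes 2.03% were called as higher. Rpe65, the first RPE marker listed, had the opposite sign (mean 3.48 in wild types and 3.30 in mutants). The marker calls were not followed without the female-pattern arrays, where calls over all genes at 1 month fell from 518 to 133. The mean level of the melanin genes was 2.04 to 2.69 on wild-type and 2.88 to 3.495 on mutant arrays at 1 month, and 3.07 to 3.5 and 2.45 to 2.95 at 1 year, so its groups were apart at both ages in the directions that Hspa5, Hsp90b1 and Xbp1 had. For the fibroblast and matrix genes it was 1.40 to 2.04 and 2.86 to 3.01 at 1 month, and 1.99 to 2.69 and 1.77 to 2.52 at 1 year. Hspa5 correlated with the melanin mean at 0.75 as measured and 0.42 with group means subtracted (n = 16), and Hsp90b1 at 0.70 and 0.07. With group means subtracted, Hspa5 correlated with the mean of Mueller glia markers at 0.64, endothelial markers at -0.63, erythrocyte markers at -0.60 and plasma and B cell markers at -0.72. Hsp90b1 correlated with Mueller glia markers at 0.63, endothelial markers at -0.85, erythrocyte markers at -0.81 and plasma and B cell markers at -0.79. Markers of plasma and B cells, which carry a large ER, had mean levels of -4.16 to -3.34 on all arrays, and none of the 7 was called between genotypes. The mean level of the lens markers ranged from -3.19 to 5.91 over the 16 arrays. In mutants at 1 year, where all 10 members were negative, 7 of 8 rod markers were negative too, with a median of -0.25. Gnat1 was called as lower, where 0.857% of all genes were called in either direction. The mean level of the rod markers was 6.84 to 6.92 on wild-type and 6.55 to 6.77 on mutant arrays of that age, so the groups were apart. With age in mutants 5 of 8 rod markers fell (Pde6b, Gnat1, Rom1, Prph2 and Nrl), where 6.7% of all genes were called in either direction. The rod genes here were named after their values were seen. With age in wild types, the comparison in which Hsp90b1 was called, 3 of 5 melanin, 5 of 7 microglia and macrophage, 2 of 6 RPE and 2 of 6 fibroblast and matrix markers were called as higher. In the same comparison 4 of 6 lens markers were called as lower, with a median of -5.07. Over all genes 12.4% were called there, 7.31% as higher. The part of these cell types in the members' levels was not tested.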

How the data were processed

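RNA of retina and RPE was hybridised to 16 single-colour (Cy3) Agilent arrays, 1 per labelled sample. Per the file headers, each deposited scanner file gives a spot's intensity after background subtraction in Agilent Feature Extraction 11.0.1.1, and flags for signal well above background, saturation and outliers, for a probe design on build mm9. A log2 matrix that the authors deposited, found quantile normalized from its values, served as an alternative, with 55681 of 55821 entries matched to probes. Per the labels' protocols, RNA came from a mirVana kit and passed an integrity check.

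The processed intensity was log2 transformed and the array's 75th percentile subtracted, without control and outlier spots (93 to 136 per array), and spots of a probe were averaged. Accessions matched to RefSeq (GRCm38.p6, for names) gave 27235 named probes and 28446 unnamed. Probes well above background on at least 4 arrays were kept (49230), and the probe with the highest mean stood for each gene (19022). One limma 3.58.1 fit (R 4.3.3) with 4 group means gave 5 contrasts, checked on simulated data. Samples were grouped by the labels, which describe 4 mice per time point. The members and the gene lists were chosen with earlier results of these data known, so no list test was made. Named pathway genes are the first 2 of each list and up to 4 further called genes with the smallest adjusted p, and others are said to be named after their values were seen. Alternatives were other scalings, background correction by normexp on the median signal (where the mean signal had been planned) with quantile scaling, other probe filters and summaries, slide, row, replicate number or sex pattern in the fit, single slides, fewer groups, and each array left out.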

Additional observations from a re-analysis of the deposited data

Results flagged for a closer look

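Among the 10 members 1 of 40 groups of 4 arrays had an array far from the others. In mutants of 1 month Hsp90b1 stood at 5.055 in replicate 4, below 5.31 to 5.35 in the other 3, and this array also had the highest share of spots well above background and the lowest 75th percentile. Among the named pathway genes 6 further arrays stood apart: Eif2ak2 at -2.102 in wild-type 1-year replicate 1, Sec24d at -1.454 in wild-type 1-year replicate 2, P4hb at 1.249 in wild-type 1-month replicate 1 and at 1.954 in wild-type 1-year replicate 1, and Bbc3 at -0.09697 in wild-type 1-month replicate 4 and at -0.443 in mutant 1-month replicate 2. These are 7 of 108 groups, and chance gives about 1 in 20. The mutant's effect on Calr differed between the ages by -0.7533, as the fit's own test of the difference showed.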

How the results depend on the processing

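No called value of the members or of the pathway genes named by the rule above changed sign under any of the 33 other settings, of which 16 left out 1 array each. Marker genes and pathway genes named after their values were seen were not followed through these settings. Of 1640 member values 70 changed sign, all of uncalled changes of at most 0.109 in size. The number of members called with age in wild types, 1 as reported, was 3 with quantile scaling, with normexp and quantile scaling and in the deposited matrix (Hsp90b1, Xbp1 and Hspa5), 2 with probes well above background on all arrays, and 0 with median scaling and on slide 1 or slide 2 alone. For the difference between genotype effects it was 1 (Hsp90b1) with quantile scaling and in the deposited matrix. Folding enzymes called in mutants at 1 month, 3 as reported, were 1 (Calr) with median scaling and with the compared groups only, and 0 without the female-pattern arrays and on slide 1 or slide 2 alone. With age in wild types they were 0 in place of 4 on either slide alone. Leaving out 1 array gave 0 to 1 members called in mutants at 1 month and at 1 year, 0 to 2 for the difference, 1 to 3 with age in wild types and 0 with age in mutants, and 3 to 4 and 3 to 6 folding enzymes. With the replicate block, 0, 0, 0, 1 and 0 members were called, as without it, and 3 folding enzymes in mutants at 1 month and with age in wild types. The replicate numbers were not taken as pairs, since the deviations of same-numbered arrays correlated at -0.122 to 0.000152 on average per number, with single pairs from -0.537 to 0.304. Over all genes the calls at 1 month, 518 as reported, fell to 306 with median scaling, 311 with the replicate block, 244 with the sex pattern as a covariate, 161 with the compared groups only, 133 without the female-pattern arrays and 17 or 1 on a single slide. At 1 year 163 became 82, 96, 86 and 78 with median scaling, the replicate block, the compared groups and without those arrays, and 278 with normexp, and 10 or 12 on a single slide. For the difference, 80 became 21, 43 and 12 with median scaling, the replicate block and without those arrays, 41 over all probes, and 1 or 0 on a single slide. With age, 2352 in wild types and 1274 in mutants became 1360 and 640 with median scaling and 189 and 37 or 725 and 162 on a single slide, and in mutants 840 with the compared groups and 275 without those arrays. Leaving out 1 array gave 227 to 931, 84 to 308, 33 to 195, 1513 to 2789 and 784 to 1924 calls. Single slides hold 2 arrays per group and have little power. The causes of the other changes were not tested.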
